A study of Homo sapiens with 30 samples.

Results

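The genes of the DNA replication machinery were followed through 2 histone marks in OCI-Ly1, a cell line from a human diffuse large B-cell lymphoma. The set holds 41 named genes among the 59792 of the RefSeq table: the origin recognition complex and licensing factors, the MCM2-7 helicase, CDC45 and GINS, the replicative polymerases and primase, the sliding clamp and its loader, the single-strand binding protein RPA, the enzymes that join Okazaki fragments, and 3 enzymes of nucleotide supply. Each gene was given the peaks no more than 1000 bp from its first or last annotated base. This gave 41 of the 21268 deposited H3K4me3 peaks and 51 of the 63580 deposited H3K27ac peaks.

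The cells had been given JIB-04, an inhibitor of Jumonji histone demethylases, at 150 nM or 500 nM, or 0.01% DMSO as the vehicle. The duration of treatment is not given in the sources used here. Chromatin immunoprecipitation followed by sequencing was done on each mark in 2 libraries per treatment, so 12 of the 30 libraries of the series were used and every group has n = 2. The labels do not say that the libraries came from separate cultures, so p-values measure only the spread between these libraries, which may be technical. The line is 1 cell line, and all values describe that line in culture.

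Replication begins when the origin recognition complex, CDC6 and CDT1 load a ring of MCM2 to MCM7 onto DNA in the G1 phase. CDC45 and GINS then join the ring and make it an active helicase, primase starts each strand, and polymerases epsilon and delta extend the strands on the PCNA clamp. Most of these genes are transcribed at the G1 to S transition under control of E2F factors, and their promoters are typically CpG-rich. H3K4me3 is a methylation mark found at active promoters and removed by Jumonji demethylases of the KDM5 family, while H3K27ac is an acetylation mark of active promoters and enhancers.

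The start regions of 35 of the 41 genes were matched in RefSeq promoter sequences of GRCh38.p14, each running from 250 bases before to 50 bases after a listed start. MCM4, MCM5, GINS4, POLD3, RPA2 and RPA3 had no entry. An E2F-type motif, searched on both strands as TTTCCCGC, TTTCGCGC, TTTGCCGC or TTTGGCGC, lay in 17 of the 35 windows (48.6%) and in 3.31% of all 35116 windows of that length. The NF-Y box CCAAT, also on both strands, lay in 22 of the 35 (62.9%) and in 34.6% of all. The median number of CG dinucleotides was 30 in the replication genes and 14 over all windows. The letters are a description of the sequence and show no binding.

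The 120 bases just before the start are printed for POLD1, LIG1, POLE and CDT1, 4 genes with a called H3K4me3 peak at 500 nM. PCNA, MCM6 and CDC6, whose peaks did not pass the test, are printed beside them. RPA1 and ORC4 also had a called peak and are not printed. Their 300-base windows hold 0 E2F-type motifs. Capitals mark the E2F-type motif and CCAAT on either strand (ATTGG and the reversed E2F letters on the other strand), and adjoining or overlapping matches run together. All are from RefSeq GRCh38.p14, read along the gene's strand.
POLD1: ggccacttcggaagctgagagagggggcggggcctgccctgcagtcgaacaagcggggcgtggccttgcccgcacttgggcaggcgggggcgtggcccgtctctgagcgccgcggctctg
LIG1: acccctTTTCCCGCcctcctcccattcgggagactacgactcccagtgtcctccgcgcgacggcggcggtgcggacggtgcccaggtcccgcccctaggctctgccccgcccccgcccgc
POLE: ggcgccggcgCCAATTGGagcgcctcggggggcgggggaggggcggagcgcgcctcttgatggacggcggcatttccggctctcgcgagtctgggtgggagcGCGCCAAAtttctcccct
CDT1: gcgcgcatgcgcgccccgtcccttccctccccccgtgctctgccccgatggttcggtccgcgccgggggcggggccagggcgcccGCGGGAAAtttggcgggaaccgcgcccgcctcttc
PCNA: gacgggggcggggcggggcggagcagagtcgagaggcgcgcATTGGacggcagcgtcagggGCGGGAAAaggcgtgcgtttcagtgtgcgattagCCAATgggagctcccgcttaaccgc
MCM6: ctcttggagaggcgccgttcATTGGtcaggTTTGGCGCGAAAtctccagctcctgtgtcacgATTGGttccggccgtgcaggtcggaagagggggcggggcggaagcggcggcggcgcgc
CDC6: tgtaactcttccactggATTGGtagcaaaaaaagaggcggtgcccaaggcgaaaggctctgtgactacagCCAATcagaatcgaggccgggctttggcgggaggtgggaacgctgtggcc
These windows are chr19:50384203-50384322 (+) for POLD1, chr19:48170345-48170464 (-) for LIG1, chr12:132687343-132687462 (-) for POLE, chr16:88803669-88803788 (+) for CDT1, chr20:5126623-5126742 (-) for PCNA, chr2:135876444-135876563 (-) for MCM6 and chr17:40287759-40287878 (+) for CDC6. No annotated gene overlaps them. Among these printed 120-base windows, that of POLD1 holds neither motif. Those of LIG1 and CDT1 hold the E2F-type motif alone, and that of CDC6 holds CCAAT alone. The 300-base window of CDC6 does hold 1 E2F-type motif, which lies past the listed start and so outside the printed bases.

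The total count in peaks was 9686420 to 12327122 per H3K4me3 library and 4360660 to 5410292 per H3K27ac library. Levels are given as CPM, the count per 1000000 reads of a library with TMM scaling over the tested peaks, and this scaling hides any change that all peaks share. Of the marker lists, all 10 B cell marker genes had a peak in both marks, with median DMSO levels of 176 CPM (H3K4me3) and 75 CPM (H3K27ac), here per total count in peaks. Peaks were present at 3 and 4 of 8 T cell markers, 2 and 0 of 7 myeloid markers, and 5 and 1 of 7 epithelial and stromal markers, with medians of 0 to 0.85 CPM. Single markers in these lists were higher, up to 77.5 CPM (T cell, H3K27ac) and 69.6 CPM (epithelial and stromal, H3K4me3). The H3K4me3 libraries at 150 nM differed from each other by less than sampling noise (chi-square per degree of freedom 0.928), but so did replicate 1 of DMSO and replicate 1 of 150 nM (0.953), which are different groups, and all were kept as separate libraries. In H3K27ac, replicate 2 of DMSO and replicate 2 of 150 nM stood apart, with 71.5 and 45.9 CPM on 5 unplaced contigs against 322 to 446 CPM in the other libraries.

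Over the 6 libraries of the mark, nearly every replication gene carried an abundant H3K4me3 peak over its start. A gene's main peak is its gene-end peak with the highest mean count over all 6 libraries of a mark. It covered the listed start in 33 of the 34 genes with a known start for H3K4me3 and in 32 of 34 for H3K27ac. Of the 41 H3K4me3 peaks, 26 lay in the top quintile of all tested peaks by abundance and 13 in the next quintile, and the main peaks had a median length of 2661 bp against 1566 bp over all peaks. Mean counts ran from 520 to 2680 reads per member peak, with a median of 1127, against a median of 341 over all tested peaks.

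Per kilobase of peak, the H3K4me3 level in DMSO had a median of 40.6 CPM over the main peaks, against 29.0 CPM over all peaks near a gene end. MCM7, a helicase subunit, was highest with 55.7 and 60.4 CPM per kb in the DMSO libraries, in a peak shared with AP4M1. RFC3, a clamp loader subunit, was lowest with 18.0 and 18.0 CPM per kb. The largest H3K4me3 totals per peak were those of RRM2, the small subunit of ribonucleotide reductase (243 and 244 CPM over 5252 bp), and ORC6, the smallest origin recognition subunit (234 and 236 CPM over 4914 bp). MCM10, which helps to start the helicase, and PRIM1, the catalytic subunit of primase, had the weakest peaks, at 47.3 and 46.2 CPM and at 51.1 and 46.5 CPM.

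**Figure D1:**
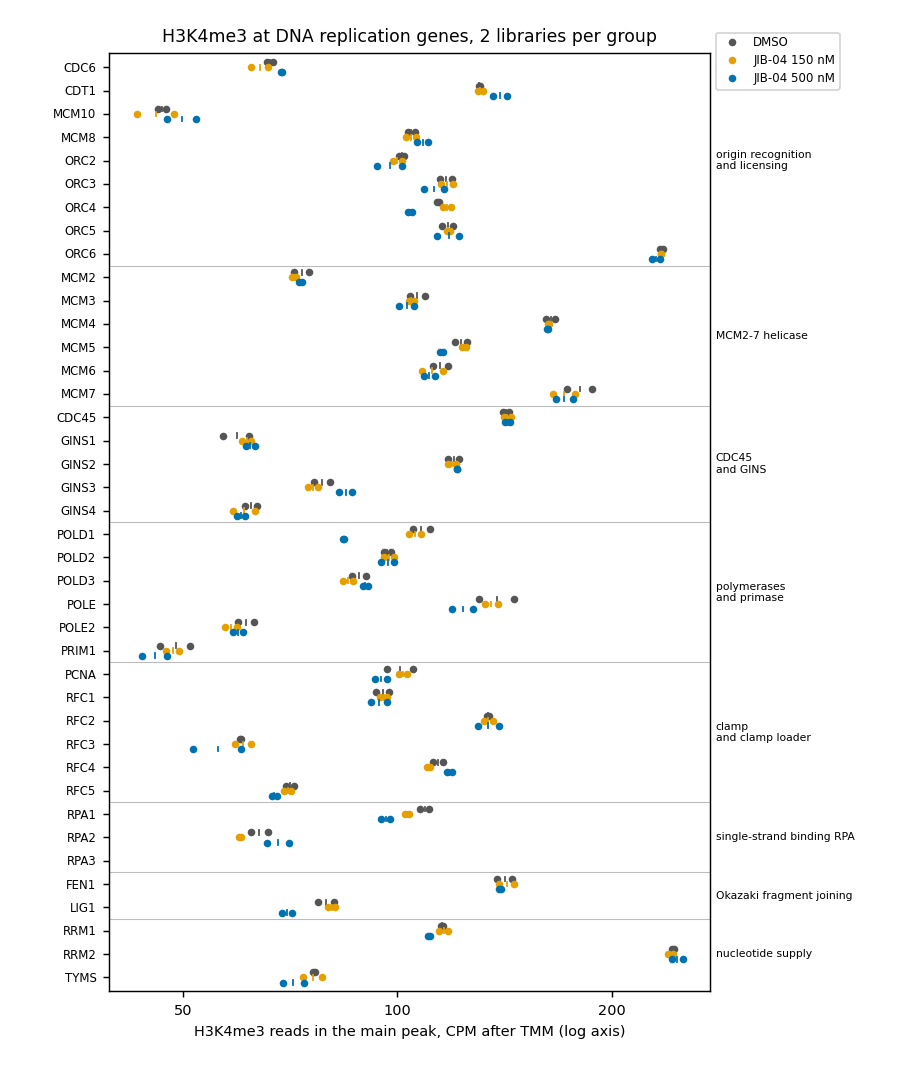
H3K4me3 level (CPM after TMM, log axis) in the main peak of each replication gene, grouped by role, with 1 point per library, 2 libraries per group and a short line at each mean (for POLD1 the main peak is the far-end one). The levels span 46.2 CPM (MCM10) to 244 CPM (RRM2) in DMSO, and for most genes the 3 treatments lie close together compared with the distance between genes.

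H3K27ac was spread in the same places with far fewer reads: 34 of the 51 peaks lay in the top quintile by abundance, yet mean counts were 8 to 576 with a median of 145. The median level per kb in DMSO was 18.2 CPM over main peaks and 14 CPM over all peaks near a gene end. FEN1, the flap nuclease that trims Okazaki fragments, was highest with 25.5 and 29.2 CPM per kb, in a peak shared with TMEM258 and MIR611. RPA3, the smallest RPA subunit, was lowest with 6.83 and 6.70 CPM per kb. A stronger RPA3 peak, 2926 bp inside its interval and so outside the 1000 bp rule, had 16.3 and 16.7 CPM per kb. Across 39 genes with both marks, the Spearman correlation between marks was 0.40 for the level per kb and 0.72 for the peak length, over values that share libraries within a mark and in part depend on the same peak calls. The H3K27ac main peak was the longer in 2 of these 39 genes. The median standard error of a log2 change at 500 nM was 0.042 for H3K4me3 main peaks and 0.14 for H3K27ac main peaks, so a change must be much larger in H3K27ac to pass the test.

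Which replication genes changed H3K4me3 at 500 nM against DMSO was tested with edgeR over all 20402 tested peaks. Of the 41 member peaks 7 passed an adjusted p of 0.05, 6 lower and 1 higher, a share of 17.1%. Over all tested peaks 39.4% passed, 20.7% higher and 18.7% lower, and among the 3845 peaks that lay both in the top quintile by abundance and near a gene end 38.3% did, 4.68% higher and 33.6% lower. The peaks that fell lay at POLD1 (2 peaks), RPA1, LIG1, POLE and ORC4, and the peak that rose lay at CDT1. The shifts were small. The median log2 change of the member peaks was −0.033, with a range of −0.36 to 0.10, and the median size without sign was 0.058, against 0.166 over all tested peaks and 0.072 among the abundant gene-end peaks. The median over members was 0.0012 with scaling by total count and 0.012 with loess offsets, and the same scaling by total count moved the median of all tested peaks from −0.0063 to 0.028, so the direction of the members as a whole was not fixed.

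The strongest fall of a member peak lay at the far end of POLD1, the gene of the catalytic subunit of polymerase delta. This peak (chr19:50417885-50421159) had 105 and 111 CPM in DMSO, 108 and 104 CPM at 150 nM, and 84.3 and 83.8 CPM at 500 nM. Both 500 nM libraries lay below all 4 others. The log2 change was −0.36 ± 0.044 (SE), a fold of 0.78, with an edgeR adjusted p of 7.5e-10, and it passed in all 14 alternatives run. Most of this peak lies past the POLD1 end and inside the neighbouring gene SPIB, a transcription factor gene of B cells. Counted from the POLD1 start, the peak covers 33562 to 36836 bp, POLD1 ends at 33695 bp and SPIB begins at 34615 bp. The fall therefore cannot be assigned to POLD1. A faint peak inside SPIB (37668 to 38254 bp) also fell, by 1.17 on the log2 scale (edgeR adjusted p = 0.0025).

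The peak over the start of POLD1 (chr19:50383469-50385886) had 81.0 and 81.8 CPM in DMSO, 85.6 and 75.4 CPM at 150 nM and 69.1 and 70.4 CPM at 500 nM. Both 500 nM libraries were again lower than any other library. Its log2 change was −0.22 ± 0.051 (edgeR adjusted p = 0.00028), and the peak also lies within 1000 bp of NR1H2, the gene of a nuclear receptor for oxysterols. With the DESeq2 Wald test its adjusted p was 0.056. H3K27ac over the same start had 32.6 and 35.9 CPM in DMSO and 35.2 and 37.5 CPM at 500 nM, a log2 change of 0.083 ± 0.14 that did not pass (edgeR adjusted p = 0.88). At the far end, H3K27ac had 67.6 and 73.0 CPM in DMSO, 68.8 and 72.9 CPM at 150 nM and 58.0 and 63.4 CPM at 500 nM. As in H3K4me3, the 500 nM libraries were below the other 4 there, but the log2 change of −0.21 ± 0.11 did not pass (edgeR adjusted p = 0.48).

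**Figure D2:**
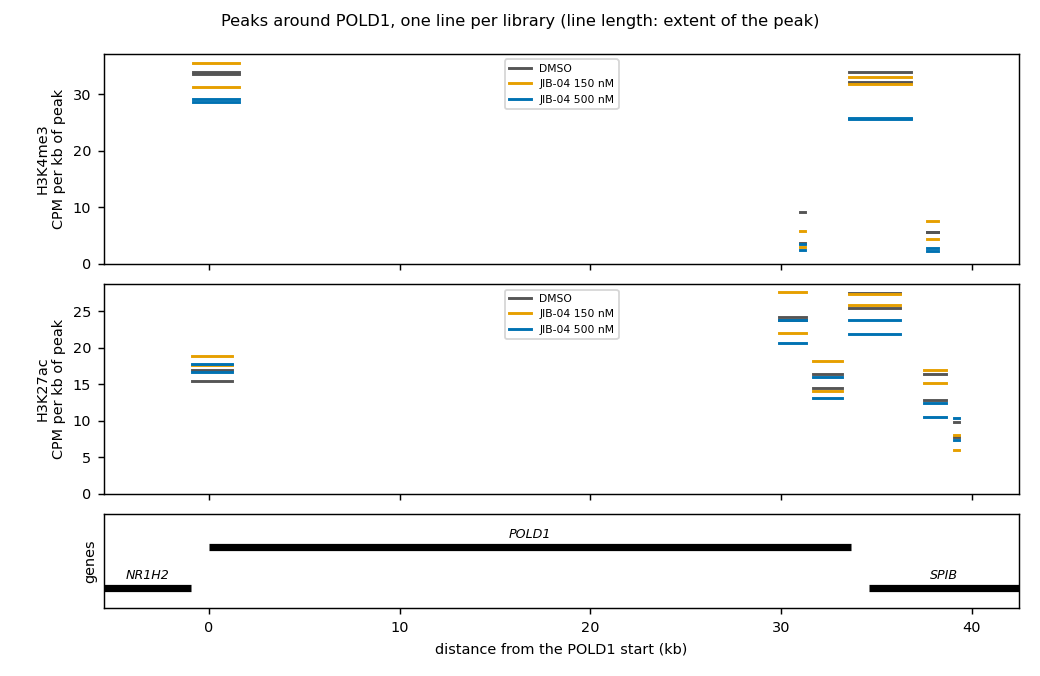
Peaks around POLD1 against the distance from its start in kb, with 1 line per library at that peak's level (CPM per kb of peak) for H3K4me3 (top) and H3K27ac (middle), and the gene intervals below. In H3K4me3 both 500 nM libraries lie under the other 4 at the start and at the far end beside SPIB, while in H3K27ac the 3 treatments overlap at the start and both 500 nM libraries lie lowest at the far end, where the change did not pass.

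POLE, the catalytic subunit of polymerase epsilon, had 130 and 146 CPM in DMSO, 133 and 138 CPM at 150 nM, and 119 and 128 CPM at 500 nM. The 500 nM libraries lay below the other 4, while 150 nM lay within the DMSO range, and the log2 change at 500 nM against DMSO was −0.16 ± 0.042 (edgeR adjusted p = 0.0021). Without DMSO replicate 2 it was −0.082 (adjusted p = 0.17) and without 500 nM replicate 1 it was −0.10 (adjusted p = 0.098). The peak spans the start that POLE shares with PXMP2, a peroxisomal membrane protein gene. The other polymerase and primase genes did not pass the test: the log2 changes of POLD2, POLD3 and POLE2, which encode accessory subunits, lay between −0.033 and 0.030, and that of PRIM1 was −0.098.

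LIG1, the ligase that seals Okazaki fragments, had 77.4 and 81.3 CPM in DMSO, 81.8 and 79.9 CPM at 150 nM, and 68.8 and 71.2 CPM at 500 nM. Both 500 nM libraries were below all 4 others, with a log2 change of −0.18 ± 0.048 (edgeR adjusted p = 0.0021). Its partner FEN1 showed 145 and 138 CPM in DMSO and 139 and 140 CPM at 500 nM, a log2 change of −0.028 that did not pass. The LIG1 peak also reaches ZSWIM9.

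RPA1, the large subunit of the single-strand binding protein, had 111 and 108 CPM in DMSO, 104 and 102 CPM at 150 nM, and 97.6 and 95.0 CPM at 500 nM. The 3 groups formed downward steps without overlap, which was also seen at the far-end peak of CDT1. The share of all tested peaks with such steps is not given here. Both 500 nM libraries lay below both DMSO libraries in 34.3% of all tested peaks and 54.9% of the abundant gene-end peaks. The log2 change was −0.18 ± 0.042 at 500 nM (edgeR adjusted p = 0.00031) and −0.084 ± 0.041 at 150 nM, where the unadjusted p was 0.045 and the adjusted p 1.0. The peak is shared with the start of SMYD4. With the DESeq2 Wald test the adjusted p was 0.059 for RPA1 and 0.13 for LIG1 at 500 nM.

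Among the origin factors the calls went both ways. ORC4, a subunit of the origin recognition complex that shares its peak with MBD5, had 114 and 114 CPM in DMSO, 116 and 119 CPM at 150 nM and 105 and 104 CPM at 500 nM. That was a log2 change of −0.13 ± 0.040 (edgeR adjusted p = 0.0078). With scaling by total count the change was −0.096 and the adjusted p 0.056, and with loess offsets they were −0.071 and 0.18.

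CDT1, the licensing factor that brings the MCM ring to origins, had 130 and 130 CPM in DMSO, 132 and 130 CPM at 150 nM and 136 and 143 CPM at 500 nM. Its start peak was higher in both 500 nM libraries, by 0.094 ± 0.037 on the log2 scale (edgeR adjusted p = 0.040), but the call was lost in 7 of 14 alternatives, among them the omission of either DMSO library, either 150 nM library or 500 nM replicate 2, with adjusted p-values of 0.15, 0.11, 0.074, 0.072 and 0.30. A further peak at the far end of CDT1, next to APRT, pointed the other way: 104 and 108 CPM in DMSO and 99.7 and 97.6 CPM at 500 nM (log2 change −0.10, adjusted p = 0.051). CDC6 had a log2 change of 0.054, and MCM8 and MCM10, only counted here with the origin factors, had 0.053 and 0.085. The other ORC subunits with a peak had −0.061 to −0.0032, and none of these changes passed.

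None of the 6 MCM2-7 helicase genes passed in edgeR at 500 nM, and 1 of them, MCM5, had an unadjusted p under 0.05 (0.028). All 6 main peaks had a negative log2 change, between −0.089 (MCM5) and −0.0086 (MCM2). The log2 change was above 0 in 48.7% of all tested peaks but in only 23.1% of the abundant gene-end peaks. The sign of changes this small can depend on the scaling, as given above for the median of the members. MCM5 had 120 and 125 CPM in DMSO, 125 and 123 CPM at 150 nM and 115 and 116 CPM at 500 nM. MCM4, by contrast, had 162 and 166 CPM in DMSO and 162 and 163 CPM at 500 nM. Without DMSO replicate 1, MCM5 had −0.12 (adjusted p = 0.048) and MCM7 had −0.14 (adjusted p = 0.0081), and without 500 nM replicate 2 MCM7 had −0.11 (adjusted p = 0.036). Over the members as a whole the DESeq2 Wald test called 1 peak, the far-end peak of POLD1.

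CDC45 and the 4 GINS genes, which complete the active helicase, had no call at 500 nM in edgeR, with 1 unadjusted p under 0.05 (GINS3, 0.031). GINS3 had 80.4 and 76.3 CPM in DMSO, 74.9 and 77.4 CPM at 150 nM and 82.8 and 86.4 CPM at 500 nM. At 500 nM the libraries lay above the other 4, while DMSO and 150 nM overlapped, and the log2 change at 500 nM against DMSO of 0.10 ± 0.047 did not pass (adjusted p = 0.072). With total-count scaling it was 0.14 and passed (adjusted p = 0.014). In the clamp and clamp loader group no peak passed and no unadjusted p was under 0.05. Its largest change, at RFC3, came with libraries that disagreed: 60.2 and 60.2 CPM in DMSO and 60.3 and 51.7 CPM at 500 nM, a log2 change of −0.095 ± 0.058. PCNA, the clamp itself, had 96.7 and 105 CPM in DMSO and 93.1 and 96.6 CPM at 500 nM (log2 change −0.087, adjusted p = 0.11). Without 500 nM replicate 1, RFC3 had a log2 change of −0.22 (adjusted p = 0.013), and without DMSO replicate 1, PCNA had −0.15 (adjusted p = 0.020).

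The nucleotide supply genes showed no call either. TYMS, which makes thymidylate, had 76.5 and 76.1 CPM in DMSO, 73.6 and 78.5 CPM at 150 nM and 69 and 73.8 CPM at 500 nM. Its log2 change of −0.10 ± 0.049 had an unadjusted p of 0.048 and an adjusted p of 0.10, and without 500 nM replicate 2 it was −0.15 (adjusted p = 0.048). The ribonucleotide reductase genes RRM1 and RRM2 changed by −0.063 and 0.019 and did not pass.

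**Figure D3:**
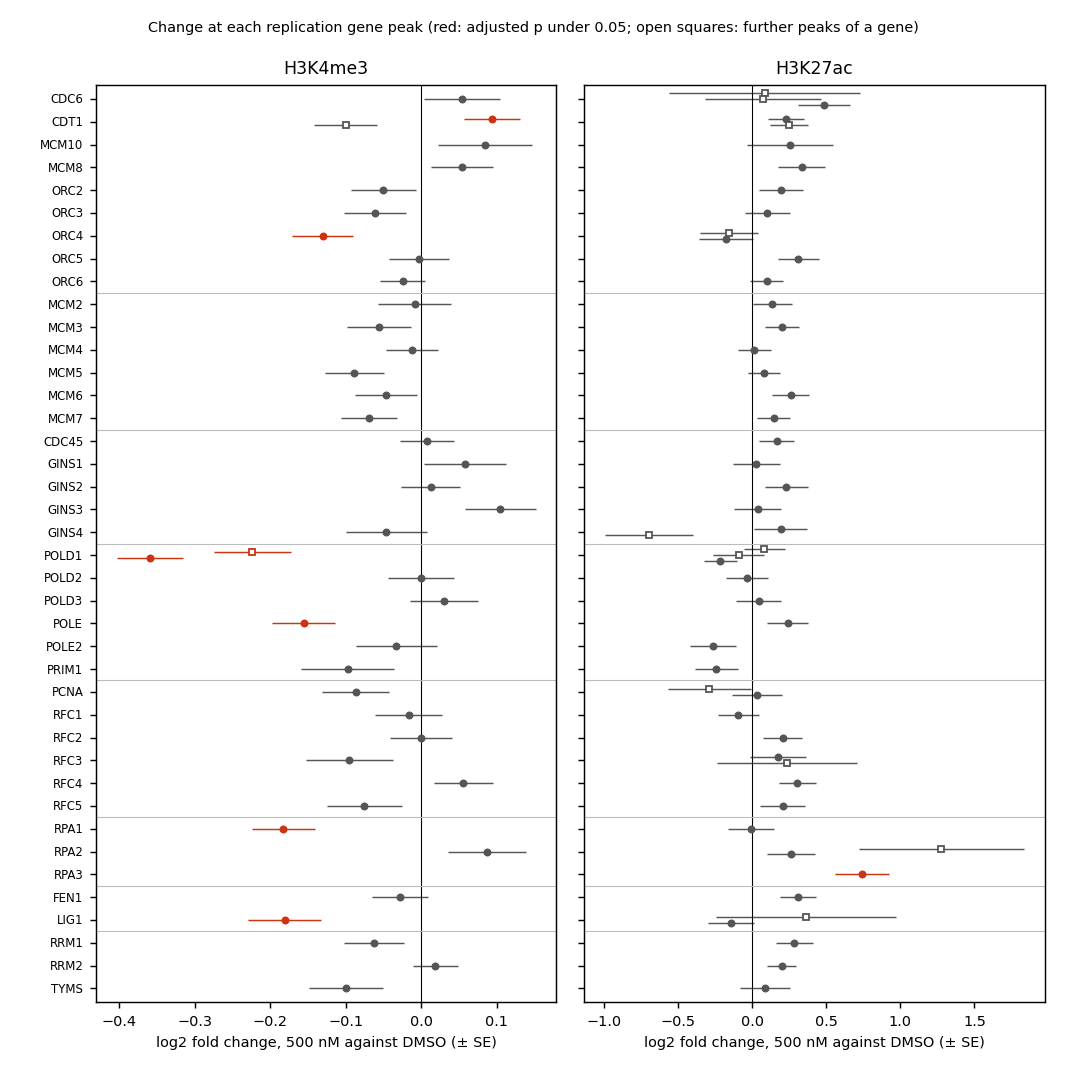
Log2 fold change at 500 nM against DMSO (points, ± SE) of each member peak for H3K4me3 (left) and H3K27ac (right), with genes by role and different x scales. Red marks an adjusted p under 0.05: 7 of 41 H3K4me3 peaks and 1 of 51 H3K27ac peaks, with the far-end peak of POLD1 (−0.36) farthest to the left in H3K4me3.

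Groups that do not overlap were counted apart from the test. At 500 nM both H3K4me3 libraries lay above both DMSO libraries in 6 member peaks and below them in 13, against 33.7% and 34.3% of all tested peaks and 10.7% and 54.9% of the abundant gene-end peaks. The log2 change was above 0 in 12 of the 41 member peaks, in 48.7% of all tested peaks and in 23.1% of the abundant gene-end peaks. An unadjusted p under 0.05 was reached by 11 member peaks (2 higher, 9 lower) and by 47.1% of all tested peaks. Of the 7 called peaks 6 also lie within 1000 bp of another gene, so reads there belong to 2 neighbours at once. Among all 41 H3K4me3 member peaks 21 are shared in this way, as are 23 of the 51 H3K27ac member peaks.

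**Figure D4:**
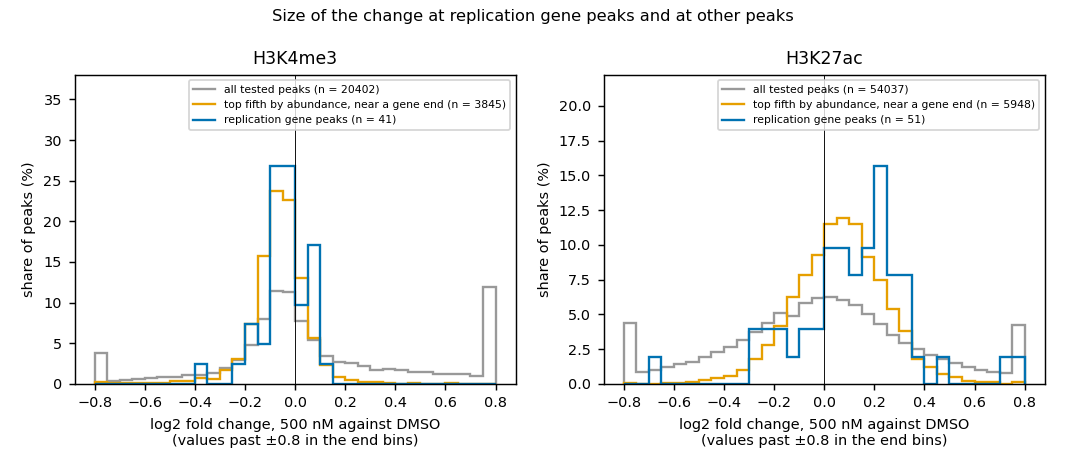
Share of peaks (%) by log2 fold change at 500 nM against DMSO in bins of 0.05, for all tested peaks, peaks in the top quintile by abundance near a gene end, and member peaks, with values past ±0.8 in the end bins. The 41 H3K4me3 member peaks lie between −0.36 and 0.10, where the abundant gene-end peaks also lie, and the H3K27ac member peaks lie mostly above 0 (39 of 51).

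At 150 nM against DMSO no H3K4me3 member peak was called in edgeR (0.0% of all tested peaks were), and DESeq2 called none of the members. At an unadjusted p under 0.05, 1 member passed, RPA1, against 4.66% of all tested peaks. The log2 changes ran from −0.086 (RPA2) to 0.042 (GINS1), with a median of −0.011.

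The step from 150 nM to 500 nM uses the same 500 nM libraries as the comparison with DMSO, so the calls share them. In it 9 of 41 H3K4me3 member peaks passed, 3 higher and 6 lower, against 39.2% of all tested peaks (20.5% higher, 18.6% lower). At an unadjusted p under 0.05 there were 12 members against 46.8% of all tested peaks. The lower peaks were both POLD1 peaks (−0.33 ± 0.044 at the far end and −0.21 ± 0.051 at the start), LIG1 (−0.21 ± 0.048), ORC4 (−0.17 ± 0.040), POLE (−0.14 ± 0.042) and MCM5 (−0.11 ± 0.039). Their edgeR adjusted p-values were 7.8e-09, 0.00070, 0.00034, 0.00056, 0.0078 and 0.026. Without 150 nM replicate 1 the POLD1 start peak had −0.12 (adjusted p = 0.17), without 150 nM replicate 2 POLE had −0.11 (adjusted p = 0.14), and without 500 nM replicate 1 POLE had −0.085 (adjusted p = 0.20).

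The higher peaks were those of RPA2, GINS3 and RFC4. RPA2, the middle RPA subunit, had 62.2 and 65.7 CPM in DMSO, 60.4 and 59.8 CPM at 150 nM and 65.6 and 70.5 CPM at 500 nM. It rose by 0.17 ± 0.053 from 150 nM to 500 nM (edgeR adjusted p = 0.0068), whereas the DMSO and 500 nM groups overlapped. GINS3 rose by 0.15 ± 0.047 (adjusted p = 0.0091). RFC4, a clamp loader subunit, had 112 and 116 CPM in DMSO, 111 and 110 CPM at 150 nM and 119 and 117 CPM at 500 nM, and rose by 0.098 ± 0.040 (adjusted p = 0.044). For these 3 genes the 150 nM mean lay under the DMSO mean. Without 500 nM replicate 2, the adjusted p-values were 0.14 for RPA2, 0.10 for GINS3 and 0.071 for RFC4. Without 150 nM replicate 2, that of RPA2 was 0.059, and without 150 nM replicate 1, that of GINS3 was 0.14. RFC4 also missed the threshold without any other single library (adjusted p = 0.051 to 0.24), and MCM5 missed it without 500 nM replicate 1 or either 150 nM library (adjusted p = 0.12, 0.13 and 0.073). Without either 150 nM library, 5 member peaks were called in place of 9.

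H3K27ac moved mostly upward at 500 nM against DMSO, but single peaks rarely passed. Of the 51 member peaks 1 was called in edgeR, at RPA3, against 0.923% of all 54037 tested peaks (0.692% higher) and 1.36% of the abundant gene-end peaks, and the DESeq2 Wald test called none of the members. The log2 change was above 0 in 39 of 51 peaks, with a median of 0.15, against 49.5% of all tested peaks (median −0.0040), 59.5% of those near a gene end (median 0.056), and 65.3% of the 5948 that were also in the top quintile by abundance (median 0.066). Both 500 nM libraries lay above both DMSO libraries in 25 member peaks and below them in 7, against 22.4% and 22.2% of all tested peaks and 39.2% and 16.6% of the abundant gene-end peaks. At an unadjusted p under 0.05, 9 member peaks were higher and 1 lower, and 11.5% of all tested peaks and 16.6% of the abundant gene-end peaks passed in either direction. Leaving out each library in turn gave medians of 0.11 to 0.17.

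RPA3 stood out by size. The peak at 1 end of its interval (chr7:7718447-7721440) had 20.5 and 20.1 CPM in DMSO, 24 and 11.9 CPM at 150 nM, and 34.9 and 32.9 CPM at 500 nM. The 500 nM libraries were above all others, and the 150 nM libraries were far apart. The log2 change was 0.74 ± 0.18 (edgeR adjusted p = 0.022), or a fold of 1.67. With the contig split between H3K27ac libraries as a term it was 0.49 (adjusted p = 0.083). FEN1 (0.47) and POLE (0.44) were called in its place (adjusted p = 0.0044 and 0.044). Both 500 nM libraries lie on the same side of the split as DMSO replicate 1. The term is thus partly tied to the treatment, and the comparison in that fit leans on DMSO replicate 1. Without DMSO replicate 1 or 2, or 500 nM replicate 1 or 2, the RPA3 log2 change was 0.75, 0.73, 0.70 and 0.78, with adjusted p-values of 0.11, 0.22, 0.17 and 0.085. FEN1 passed beside RPA3 without either 150 nM library (0.31 in both fits). No H3K4me3 peak lay within 1000 bp of either RPA3 end. The RPA3 interval has another, stronger pair of peaks 2817 bp (H3K4me3) and 2926 bp (H3K27ac) inside its other end, with H3K27ac at 43.9 and 44.9 CPM in DMSO and 55.8 and 51.2 CPM at 500 nM (log2 change 0.27, adjusted p = 0.39).

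By role, the H3K27ac main peaks of the origin and licensing group, in which MCM8 and MCM10 are counted, had positive log2 changes in 8 of 9 genes. Those of the MCM2-7 helicase had them in 6 of 6 and those of CDC45 and GINS in 5 of 5. For the clamp and its loader it was 5 of 6, and for nucleotide supply 3 of 3. For RPA it was 2 of 3, and for Okazaki fragment joining 1 of 2. The polymerase and primase group had 2 of 6 above 0 and a median of −0.12, the only role median below 0. For POLD1 this counts the far-end peak, most of which lies in SPIB (−0.21), and not its start peak (0.083). Over all tested peaks 49.5% were above 0. The share was 59.5% near a gene end and 65.3% among the abundant gene-end peaks. The counts by role are counts of signs, and apart from the RPA3 peak no peak in these groups passed in edgeR.

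CDC6, the loader of the MCM ring, had the largest H3K27ac change of the licensing group: 16.6 and 16.0 CPM in DMSO, 16.6 and 18.8 CPM at 150 nM and 24.7 and 20.9 CPM at 500 nM. Both 500 nM libraries were above the rest, and the log2 change of 0.49 ± 0.18 did not pass (edgeR adjusted p = 0.22). MCM6, a helicase subunit, had 42.8 and 43.5 CPM in DMSO, 52.7 and 46.2 CPM at 150 nM and 52.4 and 51.0 CPM at 500 nM (0.26 ± 0.13, adjusted p = 0.42). GINS2 had 29.7 and 34.7 CPM in DMSO, 33.1 and 41.7 CPM at 150 nM and 37.3 and 38.5 CPM at 500 nM (0.23 ± 0.14, adjusted p = 0.56).

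In these 3 genes the DMSO and 500 nM libraries did not overlap, and none of the changes passed. FEN1 had 56.3 and 64.6 CPM in DMSO, 52.7 and 69 CPM at 150 nM and 75 and 75.1 CPM at 500 nM (0.31 ± 0.12, edgeR adjusted p = 0.26). RFC4 had 49.2 and 44.9 CPM in DMSO, 47.8 and 56.5 CPM at 150 nM and 61.4 and 54.6 CPM at 500 nM (0.30 ± 0.13, adjusted p = 0.31). RRM1, the large subunit of ribonucleotide reductase, had 44.1 and 47.1 CPM in DMSO, 49.7 and 55.8 CPM at 150 nM and 58.0 and 53.2 CPM at 500 nM (0.28 ± 0.12, adjusted p = 0.35).

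POLE2, an accessory subunit of polymerase epsilon, was the main peak with the most negative H3K27ac change. It had 34.0 and 27.1 CPM in DMSO, 29.3 and 34.7 CPM at 150 nM and 25.1 and 25.6 CPM at 500 nM. The groups did not overlap at 500 nM, and the log2 change of −0.26 ± 0.16 did not pass (edgeR adjusted p = 0.54). Among further peaks, 1 at GINS4 had −0.70 ± 0.30 and 1 at RPA2 had 1.28 ± 0.56, on mean counts of 30 and 11 reads, and neither passed (adjusted p = 0.33 and 0.35).

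**Figure D5:**
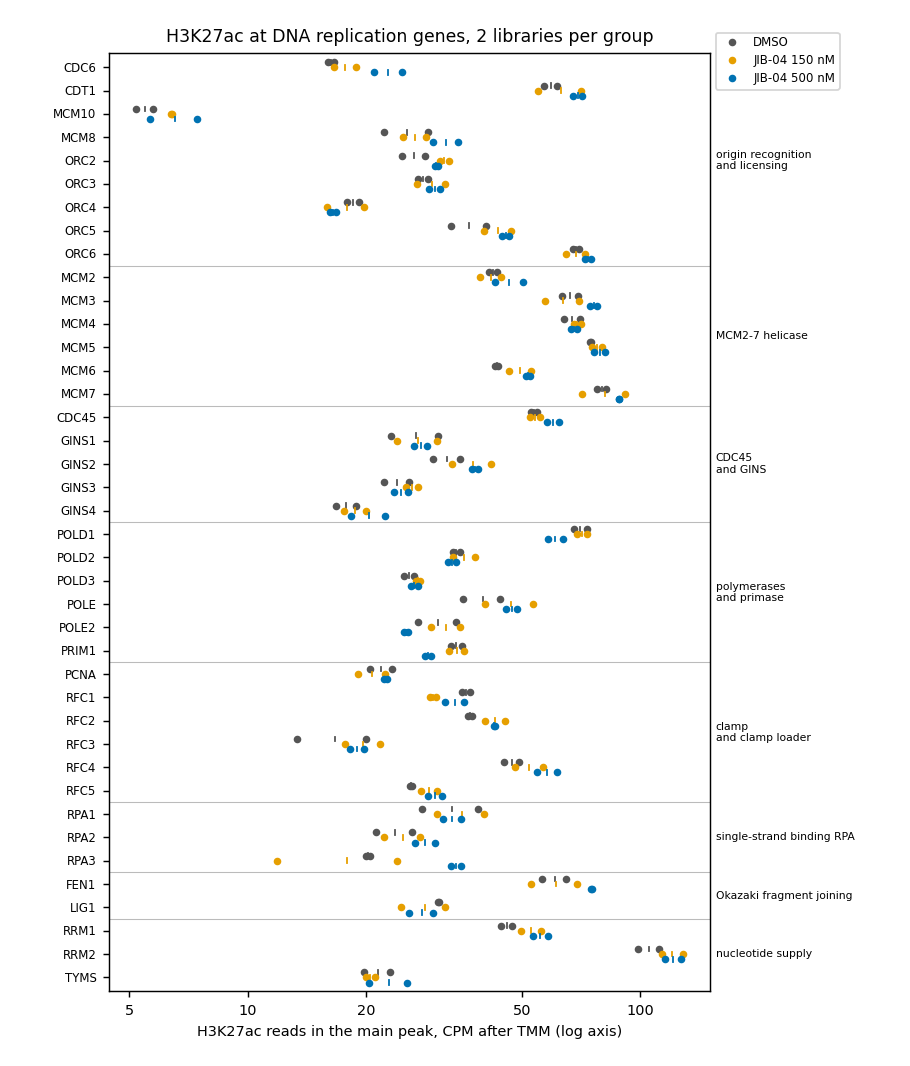
H3K27ac level (CPM after TMM, log axis) in the main peak of each replication gene, with 1 point per library, 2 libraries per group and a short line at each mean. For POLD1 the main peak is the far-end one. The libraries of 1 group spread more than in H3K4me3, and RPA3 shows the widest gap between 500 nM (34.9 and 32.9 CPM) and DMSO (20.5 and 20.1 CPM).

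At 150 nM against DMSO no H3K27ac member peak was called in edgeR or DESeq2, none had an unadjusted p under 0.05 (3.94% of all tested peaks did), and 0.00185% of all tested peaks were called. The median log2 change was 0.069. Omitting replicate 1 of 150 nM gave 0.16 and omitting its replicate 2 gave −0.026, so the sign rested on that pair of libraries. RPA3 had a log2 change of −0.76 (adjusted p = 0.047) without 150 nM replicate 1. From 150 nM to 500 nM, 1 of 51 member peaks passed, RPA3 again, against 1.27% of all tested peaks, and 6 members against 10.2% of all tested peaks had an unadjusted p under 0.05. Its log2 change was 0.94 ± 0.18 (edgeR adjusted p = 0.00099), and without 150 nM replicate 2, its library of 11.9 CPM, it was 0.50 (adjusted p = 0.10), with FEN1 called at 0.51 in its place. MCM3 passed beside RPA3 without 150 nM replicate 1 (0.41, adjusted p = 0.010).

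The 2 marks were set side by side at 39 genes. At 500 nM against DMSO both main peaks had a positive log2 change in 12 genes and both a negative one in 8. In 19 genes H3K4me3 was negative and H3K27ac positive, and in 0 genes the reverse. Abundant gene-end peaks in general leaned the same way, with log2 changes above 0 in 23.1% for H3K4me3 and 65.3% for H3K27ac. The share of other genes with each pair of signs was not counted, so the split cannot be called particular to replication genes. The signs of H3K4me3 depend on the scaling, as given above, and no test of this pattern was made. At LIG1 both marks were lower, with H3K27ac at 30.6 and 30.7 CPM in DMSO and 25.8 and 29.7 CPM at 500 nM (−0.14, adjusted p = 0.78), while POLE had lower H3K4me3 and H3K27ac at 35.4 and 43.9 CPM in DMSO and 45.6 and 48.5 CPM at 500 nM (0.24, adjusted p = 0.52).

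ORC1, the largest subunit of the origin recognition complex, had no peak within 1000 bp of its annotated ends, because its RefSeq interval runs past its listed start. A peak over that start (chr1:52402622-52405913) had H3K4me3 of 149 and 141 CPM in DMSO, 146 and 152 CPM at 150 nM and 139 and 141 CPM at 500 nM. The 500 nM libraries were the lowest, with a log2 change of −0.054 that did not pass (edgeR adjusted p = 0.25). Against 150 nM it was −0.092 (adjusted p = 0.043). H3K27ac there had 52.6 and 50.3 CPM in DMSO and 55.9 and 56.5 CPM at 500 nM (0.13, adjusted p = 0.74).

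The wider replication machinery and its regulators were taken as lists. Whether their peaks also lie near other genes was not checked, so a change there cannot be assigned to the named gene alone. Of 43 other replication genes 42 had a tested H3K4me3 main peak, and 13 of those were called at 500 nM against DMSO, 3 higher and 10 lower (median −0.041), where 39.4% of all tested peaks were called. The largest fall was at TK1, thymidine kinase, with 134 and 124 CPM in DMSO and 101 and 96.1 CPM at 500 nM (−0.39 ± 0.043, edgeR adjusted p = 4.2e-11). The largest rise was at POLE4, a small subunit of polymerase epsilon, with 42.6 and 41.6 CPM in DMSO and 50.8 and 50.2 CPM at 500 nM (0.26 ± 0.061, adjusted p = 0.00041). Of 30 genes of E2F and S-phase control 29 had a tested peak and 7 were called, 2 higher and 5 lower (median −0.014), against the same 39.4% of all tested peaks. The extremes were TFDP2, a partner of E2F factors (−0.22 ± 0.041, adjusted p = 1.5e-05), and CCND2, a D-type cyclin, whose gene-end peak was faint, at 0.98 and 0.59 CPM in DMSO and 2.21 and 2.35 CPM at 500 nM (1.49 ± 0.39, adjusted p = 0.0017).

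In H3K27ac no main peak of either list was called in edgeR at 500 nM against DMSO. The log2 change was above 0 in 36 of 42 other replication genes (median 0.13) and in 22 of 28 control genes (median 0.097). It was also above 0 in 59.5% of all peaks near a gene end (median 0.056). Among the abundant gene-end peaks this share was 65.3% (median 0.066). The largest rises were 0.43 (POLA1, the catalytic subunit of polymerase alpha, adjusted p = 0.42) and 0.41 (LIN54, a subunit of the MuvB complex, adjusted p = 0.45). The largest falls were −0.57 (TK1, adjusted p = 0.19) and −0.22 (E2F5, adjusted p = 0.23). TK1 thus had the largest fall of its list in both marks, with H3K27ac at 18.2 and 19.1 CPM in DMSO and 14.7 and 10.4 CPM at 500 nM, and the H3K27ac change did not pass.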

How the data were processed

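The authors deposited 1 table of raw counts per mark, with 1 row per consensus peak and 1 column per library. Per the file headers, the counts were made with featureCounts 2.0.1, requiring a fraction of 0.2 of the read in the peak. The submitters' processing notes name Trim Galore 0.6.7, BWA 0.7.17-r1188, Picard 2.27.4, MACS2 2.2.7.1, deepTools 3.5.1, edgeR 3.42.4 and the build GRCh38. How the consensus was made is not given in the sources used here. Coordinates have 1 added to the deposited start. Gene intervals and promoters came from RefSeq GRCh38.p14.

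Counts were tested here with edgeR 4.0.16 (filterByExpr, TMM, glmQLFit, glmQLFTest) in R 4.3.3, with the 6 libraries of each mark fitted together, with Benjamini-Hochberg adjustment over all tested peaks at 0.05. SE was derived from the F statistic. On simulated counts, 200 peaks changed by 1 on the log2 scale were recovered at 79.5% to 84.5% over the 3 comparisons of 20402 H3K4me3 peaks. Over those of 54037 H3K27ac peaks it was 39.5% to 45%. Per comparison 2 to 10 unchanged peaks were also called. The changed peaks were drawn from all abundances, and the change was larger than that of any called member peak. The shares therefore do not give the recovery of the member changes reported here. No molecular identifiers are described, so counts may include copies of 1 molecule.

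Named with values were all called members, the largest change of each role group and mark, the highest and lowest level per kb, members without a peak, and the extremes of both further lists. FEN1, POLE, PCNA, RRM2, MCM3, MCM4, MCM8, MCM10 and a few others were added after their values were seen. The members, the lists and the printed promoters were chosen with earlier results of these data known. Alternatives were other size factors, filters, DESeq2 1.42.0, a replicate block, a term for the contig split, other windows, and leaving out each library.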

Additional observations from a re-analysis of the deposited data

How the results depend on the processing

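No called member peak changed direction under any alternative run. In H3K4me3, the calls at 500 nM against DMSO (7) became 1 with the DESeq2 Wald test and 11 within 5000 bp of a gene end (55 peaks), and 5 to 10 without 1 library. From 150 nM to 500 nM the calls (9) became 1 with DESeq2 and 16 within 5000 bp, and 5 to 9 without 1 library. The median log2 change of members was 0.012 with loess offsets and 0.0012 with total-count scaling against DMSO, and 0.034 and 0.021 against 150 nM, where leaving out 1 library gave −0.025 to −0.0042. In H3K27ac, the single call at 500 nM against DMSO became 0 with DESeq2, 0 at a mean count of at least 50, 2 with the 4 libraries of the contrast, 2 with the contig split as a term, and 0 to 2 without 1 library. At 150 nM it was 0 to 1 without 1 library, with medians of −0.026 to 0.16. Against 150 nM it became 0 with DESeq2, 2 with the split term, 2 by overlap with the gene body (93 peaks), and 1 to 2 without 1 library, with medians of −0.021 to 0.16. The cause was not tested, except that the wider windows and gene bodies hold more peaks. Loess offsets added GINS3, RRM2, MCM8 and RFC4 as higher in H3K4me3 at 500 nM against DMSO.

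Replicate numbers are in the labels, and the correlations of the deviations of same-numbered libraries were 0.0047 to 0.049 in H3K4me3 and 0.0026 to 0.13 in H3K27ac. The highest was that of DMSO and 150 nM in H3K27ac, whose replicates 2 also stood apart on the contigs. Not every pair was above 0.1, so the numbers were not taken as pairs. With the replicate block the member calls were 7, 0 and 10 for H3K4me3 and 1, 0 and 1 for H3K27ac, in the order 500 nM against DMSO, 150 nM against DMSO and 500 nM against 150 nM. Depth limits faint H3K27ac peaks: members with a mean of 8 to 11 reads had standard errors of 0.56 to 0.64, which also hold the spread between libraries. With a lone library left in a group, that library is assumed to vary like the others.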
